A study of Mus musculus with 9 samples.

Results

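CD133+Nestin+ cells were compared with Nestin+ cells within each of 3 sorts. Both populations came from the germinal layer along the third ventricle of the mouse brain. The libraries were chosen by their titles, which name the sorted population and the sort: 3 libraries of CD133+Nestin+ cells and 3 of Nestin+ cells, 6 of the 9 in the series. The other 3 libraries hold CD133+ cells and entered no test, and their levels are given beside some results. Each label also carries a passage number equal to the sort number, so sort and passage cannot be told apart. All 3 populations came from Nestin-CFPnuc mice on a C57/BL6 background, which express cyan fluorescent protein under the Nestin promoter, taken at postnatal day 1 with no treatment and no induced mutation named. Cells were sorted on that reporter and on the surface protein CD133, so "Nestin+" stands for reporter activity, not for the Nestin protein. The labels do not say whether cells called Nestin+ were also selected as CD133-negative, nor whether sorts came from separate animals, so p-values measure only the spread between these sorts, which may be technical. The study's stated purpose includes the molecular differences between such isolated progenitors.

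CD133, the protein of Prom1, sits on membrane protrusions and is used to isolate neural stem cells, but it also marks the apical surface and cilia of the cells that line the ventricles. Those lining cells, the ependyma, become multiciliated when regulators such as Foxj1 and Mcidas switch on the genes of centriole amplification and of the motile axoneme, the moving core of the cilium. RFX transcription factors bind the X-box, a DNA element in the promoters of many cilia genes. Oligodendrocyte precursors, marked by the growth factor receptor Pdgfra, arise from the same germinal zones.

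Promoter windows with an arm of the X-box are shown for cilia genes because most of the results turn on these genes. The arm searched was GTTGCC, on both strands, in the 250 bases before and 50 after each RefSeq start (GRCm38.p6). It was present at some start of 14.1% of the 27025 genes in the RefSeq table, and in 12.5% of all 32851 promoters. Of 26 motile axoneme genes with a promoter there (of 29), 11 held it (42.3%), as did 7 of 12 ependymal genes (58.3%, of 15) and 8 of 16 genes of intraflagellar transport and the primary cilium (50%, of 20). The full near-palindromic X-box, which contains a variable form of that arm on either side of 2 free bases, was found at 1 of 26 axoneme and 1 of 12 ependymal genes and at 0.529% of the genes in the table. The forkhead core GTAAACA was found at 2 of 26 and 1 of 12, beside 4.05% of the genes in the table. A match is a description of letters and not a binding site. The 6 windows below belong to called members with the smallest p of the motile cilia lists whose arm lay before the start and whose window overlapped no GENCODE exon. Capitals mark GTTGCC or its reverse complement, and each window reads 5′ to 3′ on the gene's strand.
Ccdc153 (plus strand, chr9:44240485-44240570): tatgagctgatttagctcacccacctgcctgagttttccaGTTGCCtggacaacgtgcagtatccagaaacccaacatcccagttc
Lrrc23 (minus strand, chr6:124779728-124779806): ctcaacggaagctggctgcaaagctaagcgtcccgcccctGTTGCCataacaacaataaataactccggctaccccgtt
1110017D15Rik (minus strand, chr4:41507765-41507815): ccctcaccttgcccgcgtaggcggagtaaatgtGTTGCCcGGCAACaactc
Fam183b (minus strand, chr11:58801961-58802016): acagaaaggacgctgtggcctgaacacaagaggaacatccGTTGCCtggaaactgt
Tekt1 (minus strand, chr11:72361883-72361937): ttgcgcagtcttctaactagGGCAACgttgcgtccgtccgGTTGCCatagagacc
Mcidas (plus strand, chr13:112993633-112993718): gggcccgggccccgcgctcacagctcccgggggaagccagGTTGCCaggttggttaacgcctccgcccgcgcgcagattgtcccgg
In 1110017D15Rik and Tekt1 both orientations of the arm lie within the window.

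Levels are in CPM (reads scaled to a fixed total per library), a unit inferred from the values, and triplets of values follow sorts 1, 2 and 3. Differences are log2 ± SE of CD133+Nestin+ minus Nestin+ on the log2(CPM + 1) scale, fitted within sorts, which understates the change of low genes. A gene was called at an adjusted p under 0.05, and "rose" and "fell" are used of called genes. The step of 1 read was 0.0292 to 0.0344 CPM in the 6 libraries, and 15561 of 18329 genes reached 1 CPM in at least 3 of them. Both libraries of sort 2 had the least of their reads in the listed genes, 65.9% in CD133+Nestin+ and 70.4% in Nestin+, beside 77.6% to 87.6% in the others. CD133+Nestin+ of sort 2 also stood apart on the first principal component, at -106 where the others lay between -14.2 and 59.9, and had 0.516% of its listed signal in ribosomal protein genes, beside 0.845% to 1.36%. Counts without sort 2 are therefore given beside the lists whose counts it moved most.

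Both sort markers behaved as the labels name them. Prom1 on chromosome 5 (43993620 to 44102032) read 142, 116 and 181 CPM in CD133+Nestin+ and 58.1, 39.3 and 55.8 CPM in Nestin+ libraries. Its difference was 1.50 ± 0.18 (adjusted p = 0.00634), and Nestin+ cells thus kept a measurable level. Nes stood at 210, 172 and 212 CPM against 195, 157 and 166 CPM, a difference of 0.20 ± 0.17 (adjusted p = 0.592). The cells were chosen by these markers, so both values check the labels and are no findings.

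Most of the genes that differed were higher in the CD133+Nestin+ cells, and motile cilia genes were prominent among them. Of the 15561 genes tested, 756 were called (4.86%), 649 higher (4.17%) and 107 lower (0.688%) in CD133+Nestin+ cells. By limma's unadjusted p under 0.05, 2748 tested genes (17.7%) differed in either direction, the share to set beside such counts in the lists below. Each called gene moved the same way in all 3 pairs. The groups did not overlap for 622 of the 649 and 97 of the 107, where over all tested genes they did not overlap for 10.9% on the higher and 6.33% on the lower side. The shared direction and the lack of overlap come from the same 6 libraries as the calls. They describe the called genes and are no separate support. The median difference was 1.79 among the higher, -1.44 among the lower and -0.05 over all genes. At least 2 log2 units separated the groups for 243 higher and 23 lower genes. The counts depend on the pairs: 1557 genes were called without sort 2 (1190 higher, 367 lower), 428 higher genes without sort 3, and 3181 (2096 and 1085) when libraries were weighted by their estimated quality. Without the sort number as a block 403 were called, 389 higher and 14 lower, all of them among the 756.

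**Figure D1:**
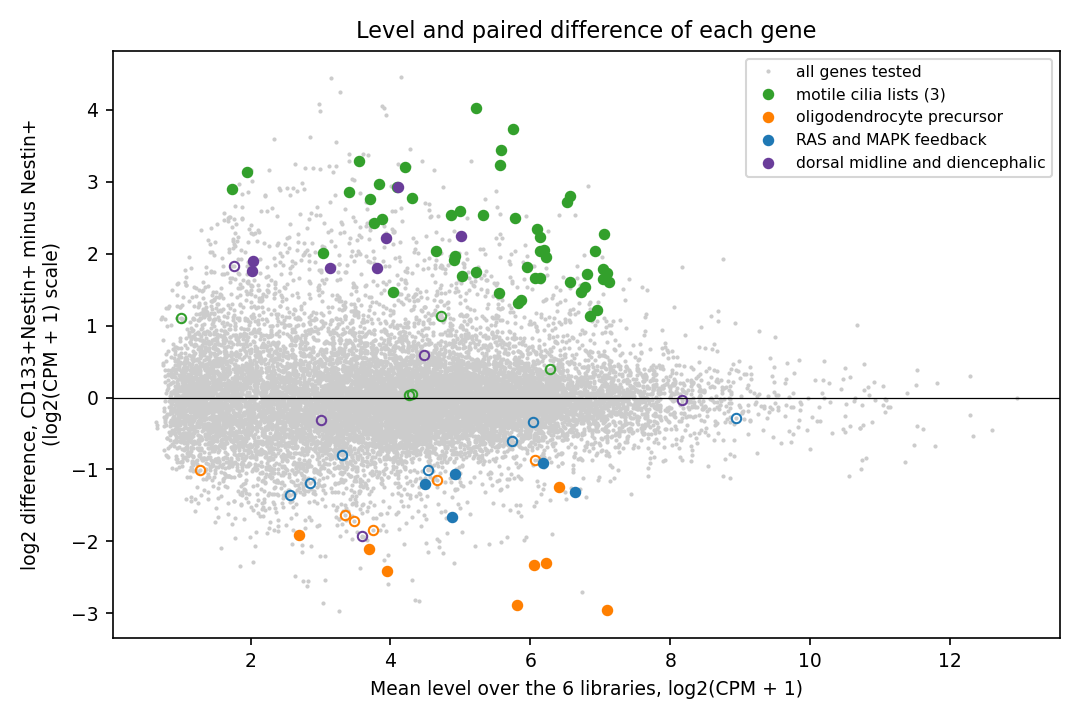
Each gene's mean level over the 6 libraries (x axis, log2(CPM + 1)) against its paired difference, CD133+Nestin+ minus Nestin+ (y axis, log2(CPM + 1) scale), for 15561 genes; filled circles are called members of the named lists and open circles members that were not called. The motile cilia members lie above 0, while all 14 oligodendrocyte precursor members lie below it.

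Most listed regulators of the multiciliated fate were higher in CD133+Nestin+ cells, with 8 of 12 tested members called, all higher, and a median of 2.12. Foxj1 lies on chromosome 11 (116330704 to 116335399) and encodes the forkhead factor that drives motile cilia formation. Its levels were 149, 127 and 185 CPM against 40.4, 28 and 27.4 CPM. Every CD133+Nestin+ library was above every Nestin+ library, and the difference was 2.24 ± 0.22 (adjusted p = 0.00451). Trp73, a p53 family factor that multiciliated cells need, stood at 24.5, 29.7 and 28.9 CPM against 3.26, 2.64 and 2.96 CPM, a difference of 2.86 ± 0.28 (adjusted p = 0.00441). The 3 Trp73 values within each population lay close together, far from those of the other population. Myb, which acts early in the same programme, read 28.1, 74.5 and 46.7 CPM against 4.23, 8.27 and 3.91 CPM, a difference of 2.93 ± 0.27 (adjusted p = 0.00409).

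Deup1, a scaffold of the deuterosomes on which multiciliated cells mass-produce centrioles, had the largest difference of these regulators. It stood at 171, 106 and 164 CPM against 19.9, 10.4 and 14.4 CPM, or 3.23 ± 0.19 (adjusted p = 0.00194). Mcidas, which commits cells to the fate, Ccno and Cdc20b, which act in centriole production, and the RFX factor gene Rfx2 were the other called members. Mcidas read 33.8, 28.6 and 37.3 CPM against 5.32, 4.24 and 2.84 CPM (2.76 ± 0.29, adjusted p = 0.00493). Cdc20b was nearly silent in Nestin+ cells, at 0.447, 0.0979 and 0.37 CPM, where 3 reads are 0.0927 to 0.103 CPM, beside 9.02, 14 and 8.95 CPM in CD133+Nestin+ cells. Rfx2 read 82.7, 156 and 129 CPM against 28.3, 33.9 and 50.8 CPM (1.67 ± 0.22, adjusted p = 0.00907). The members not called were Gmnc (1.11 ± 0.32, adjusted p = 0.117), which was low in both populations, and Rfx3 (0.40 ± 0.19, adjusted p = 0.34). E2f4 (0.04 ± 0.25) and E2f5 (0.04 ± 0.27) were not called either and hardly differed.

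Some of these regulators were higher still in the CD133+ libraries. Deup1 stood at 483, 1113 and 485 CPM in CD133+ cells, Mcidas at 85.7, 195 and 86.6 CPM and Ccno at 77.2, 138 and 74 CPM. All of these lie above every CD133+Nestin+ library, in which Ccno read 23.6, 6.83 and 21.9 CPM. Every CD133+ library was above every CD133+Nestin+ library for 5 of the 12 tested regulators, 4 of 29 axoneme genes and 2 of 15 ependymal genes, beside 10.1% of all tested genes. The axoneme genes with that order include Lrrc23, a radial spoke gene, at 491, 1370 and 583 CPM in CD133+ cells. Dnah5, an outer dynein arm motor of the axoneme, read 21.6, 58.8 and 25.6 CPM in CD133+ and 28, 55 and 25.3 CPM in CD133+Nestin+ cells, with overlapping ranges. These levels are a description, and the difference between CD133+ and CD133+Nestin+ cells was not tested here.

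**Figure D2:**
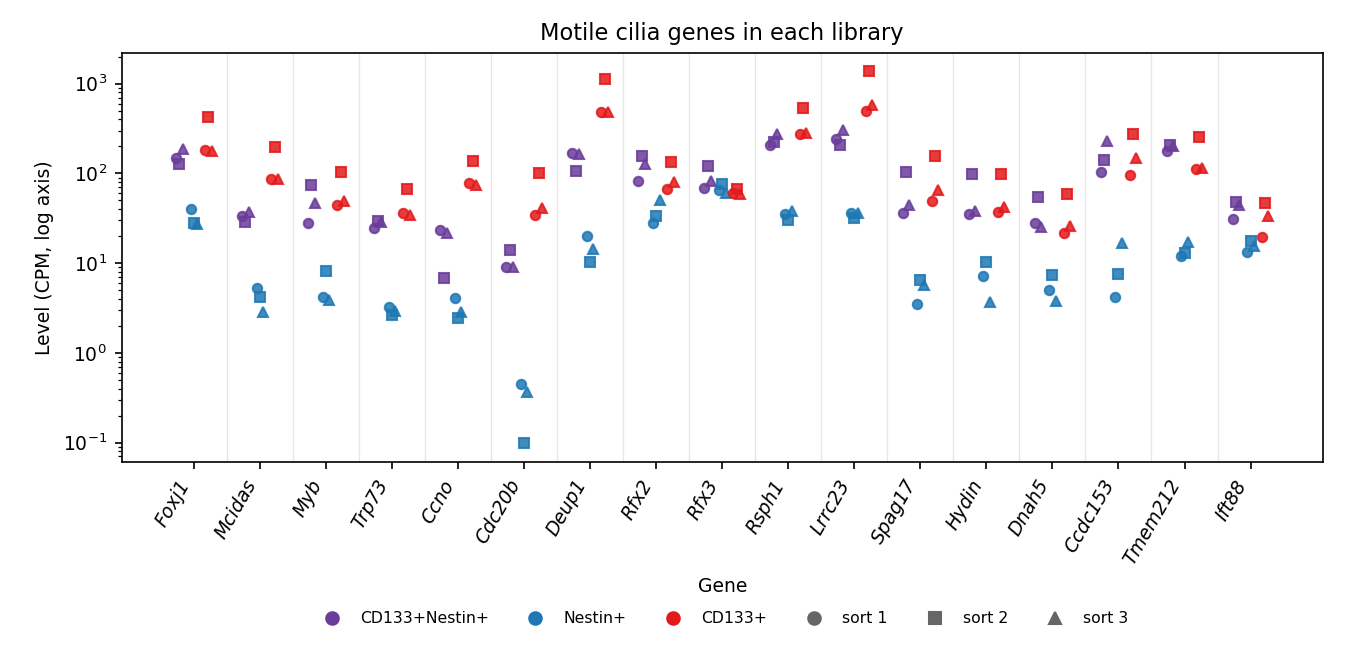
Level of 17 cilia genes (y axis, CPM on a log axis) in each library of the 3 populations, with 1 symbol per sort; the genes were chosen after their values were seen. The 3 CD133+Nestin+ points lie above the 3 Nestin+ points for every gene shown but Rfx3, and Deup1, Mcidas, Ccno and Cdc20b are highest in CD133+ cells.

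Almost the whole list of axoneme genes was higher in CD133+Nestin+ cells. Of 29 tested members 28 rose and none fell, with a median of 1.96 and a range of 1.13 to 3.21. The summed level of the list was 3169 to 3781 CPM in CD133+Nestin+ and 892 to 955 CPM in Nestin+ libraries. Without any 1 sort the count was between 26 and 29, and it was 22 without the block. Lrrc23 stood at 244, 209 and 305 CPM against 36.5, 32.2 and 36.4 CPM, a difference of 2.80 ± 0.18 (adjusted p = 0.00194). Rsph1, which encodes a radial spoke head protein (chromosome 17, 31255019 to 31277383), stood at 209, 226 and 273 CPM against 35.7, 30.4 and 38.4 CPM (2.72 ± 0.18, adjusted p = 0.00194). Neither gene overlapped between the populations.

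Members of each structural class of the axoneme were among the called genes. Spag17, a central pair component, had the largest difference, 3.21 ± 0.28 (adjusted p = 0.00408), from 3.55, 6.52 and 5.65 CPM in Nestin+ to 36.1, 104 and 44.8 CPM in CD133+Nestin+ cells. Zmynd10, which acts in the assembly of dynein arms before they enter the cilium, stood at 93.5, 82.9 and 112 CPM against 17.2, 16.2 and 13.6 CPM (2.54 ± 0.22, adjusted p = 0.00408). Dnah5 rose by 2.49 ± 0.25 and Rsph9, the called member with the smallest difference, by 1.13 ± 0.17. Dnaaf3, another dynein assembly gene, was the member not called: it read 25.3, 56.8 and 38.5 CPM against 17.3, 17.6 and 15.7 CPM (1.13 ± 0.27, adjusted p = 0.0712). By gene symbol, a grouping made after the values were seen, 10 of 15 tested Dnah genes, 26 of 30 Cfap genes, 6 of 7 Rsph genes and 3 of 3 Drc genes rose, and 0 of these families' members fell. Among 36 tested Kif genes, whose kinesin products work throughout the cell, 2 rose (5.56%), near the 4.17% of all tested genes.

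All 15 genes of the ependymal list, which names markers of the mature ciliated lining, rose, with a median of 2.06. Ccdc153 stood at 104, 141 and 229 CPM against 4.19, 7.59 and 16.9 CPM (4.02 ± 0.22, adjusted p = 0.00194). Tmem212 read 176, 208 and 204 CPM against 12, 12.9 and 17 CPM (3.73 ± 0.19, adjusted p = 0.00194). In both genes the lowest CD133+Nestin+ library was several times above the highest Nestin+ library. 1110017D15Rik stood at 163, 119 and 183 CPM against 35.2, 22.6 and 31.3 CPM (2.34 ± 0.18, adjusted p = 0.00321). Nme9 read 29.7, 39.8 and 38.5 CPM against 1.75, 3.68 and 3.08 CPM (3.29 ± 0.27, adjusted p = 0.00387). The summed level of the list was 2081 to 2544 CPM in CD133+Nestin+, 459 to 562 CPM in Nestin+ and 1864 to 3494 CPM in CD133+ libraries. In bulk libraries, fewer ciliated cells and less of these transcripts per cell cannot be told apart.

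Genes that ciliated cells share with cells bearing a primary cilium differed less. Of 20 genes of intraflagellar transport, the cargo system of all cilia, and of the primary cilium, 6 rose and 0 fell, with a median of 0.87. All 20 differences were positive, and the groups did not overlap for 17, beside 10.9% of all tested genes on the higher side. Ift88, a core transport subunit, stood at 31, 48.2 and 43.9 CPM against 13.5, 17.6 and 15.4 CPM (1.34 ± 0.21, adjusted p = 0.0175), and Ift20 rose by 1.12 ± 0.18 (adjusted p = 0.0168). Ift74 and Tmem67, a transition zone gene, rose by 1.01 ± 0.17 and 1.06 ± 0.18. These calls are less firm than those of the axoneme: 1 member was called without the block, 1 without sort 1, 14 without sort 2 and 1 without sort 3.

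Lists of centriole, tubulin and junction genes were written after the values were seen. Of 22 genes of centrioles and basal bodies 7 rose, among them Cetn4, a centrin, at 14.4, 21.5 and 19.4 CPM against 2.48, 4.15 and 3.88 CPM (2.11 ± 0.28, adjusted p = 0.00887). The centriole count was 10 without sort 2, 3 without sort 3 and 4 without the block. Of 21 tubulin and tubulin ligase genes 4 rose, and without sort 2 the count was 7. Tubb4b, a beta tubulin of axonemes, stood at 1217, 652 and 764 CPM against 366, 200 and 148 CPM (1.93 ± 0.20, adjusted p = 0.00487), the largest gain in CPM among the called cilia genes named here. The ligases Ttll3, Ttll6 and Ttll9, which add side chains to tubulin, were the other 3, by 1.51 to 2.01. Without the block 1 member was called, and Tubb4b, Ttll3 and Ttll6 lost their calls. Of 14 junction and epithelial genes 6 rose: Ocln, F11r, Cldn2 and Jup of cell junctions, the protease inhibitor gene Spint2, and Ezr, a linker of the apical membrane. Spint2 read 48.9, 40.5 and 72.3 CPM against 2.61, 4.3 and 8.26 CPM (3.25 ± 0.28, adjusted p = 0.00408). Ocln read 91.8, 120 and 152 CPM against 39.3, 42.8 and 55.5 CPM (1.37 ± 0.18, adjusted p = 0.00797). Without any 1 sort, 2 to 6 junction genes were called, and 2 without the block.

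The largest rises held further genes known from ciliated cells together with genes of other roles. Ccna1, a cyclin best known from the testis, stood at 66.6, 64.7 and 129 CPM against 1.65, 0.945 and 9.74 CPM (4.45 ± 0.33, adjusted p = 0.00318). Cdhr3, a cadherin of ciliated cells, read 19.4, 71.9 and 46.5 CPM against 1.06, 1.04 and 0.617 CPM (4.45 ± 0.42, adjusted p = 0.00417). Tctex1d4, a dynein light chain family gene, read 49.5, 57.4 and 70.7 CPM against 2.63, 2.5 and 2.67 CPM (4.05 ± 0.26, adjusted p = 0.00194). All 3 genes were at or below 10 CPM in each Nestin+ library. The serotonin receptor gene Htr5b read 48.5, 57.6 and 76.4 CPM against 1.34, 3.19 and 4.22 CPM (4.03 ± 0.26, adjusted p = 0.00194), and Scnn1a, a subunit of the epithelial sodium channel, rose by 3.38 ± 0.39. Crip3, Spata18, Tmem232, Odf3b, Frmpd2 and the dynein gene Dnah3 rose by 3.39 to 3.99. Chchd10, a mitochondrial gene, and Crocc2, a rootlet gene, were uneven across sorts: Chchd10 read 15.4, 106 and 119 CPM against 1.24, 1.15 and 11.6 CPM, and Crocc2 read 10.9, 134 and 41.7 CPM against 0.825, 3.72 and 6.29 CPM. Both calls were lost without the block.

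Developmental patterning genes formed a second group that was higher in CD133+Nestin+ cells. Of 12 tested genes of the dorsal midline and diencephalon 7 rose and 0 fell, with a median of 1.80 and a range of -1.93 to 2.92, and 9 had positive differences. The lowest was Bmp7, a BMP ligand gene, at 13.8, 0.795 and 7.87 CPM against 24.5, 22.2 and 21.2 CPM (adjusted p = 0.116), with no overlap. Msx1, a homeobox gene of the dorsal midline (chromosome 5, 37820485 to 37824583), stood at 31.7, 55.5 and 57.5 CPM against 5.19, 4.2 and 6.69 CPM (2.92 ± 0.28, adjusted p = 0.00441). Wnt8b, a WNT ligand gene (chromosome 19, 44493472 to 44514273), stood at 45.6, 126 and 57.6 CPM against 9.82, 17 and 15.5 CPM (2.25 ± 0.25, adjusted p = 0.00555). Neither gene overlapped between the populations, and the Wnt8b value of sort 2 was the highest in both. Dbx1, a regulator of progenitor domains, read 18.7, 39.9 and 21.3 CPM against 6.97, 8.83 and 4.41 CPM (1.80 ± 0.28, adjusted p = 0.0156), and its call was lost without the block. Lmx1a, of the roof plate and other midline tissue, and the secreted signal genes Rspo2 and Bmp6 also rose, by 1.80, 1.89 and 1.76. Leaving out 1 sort gave 5 to 8 higher members, and 1 lower member without sort 1 and without sort 2.

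Levels of 3 of these patterning genes, Msx1, Wnt8b and Dbx1, were not shared with the CD133+ cells in the way the cilia genes were. Msx1 stood at 8.62, 16.6 and 11.8 CPM and Dbx1 at 4.88, 4.31 and 4.93 CPM in CD133+ libraries. Wnt8b read 15.8, 7.43 and 8.84 CPM there. For all 3 genes each CD133+Nestin+ library was above each CD133+ library and each Nestin+ library. Rspo2 also had each CD133+Nestin+ library above each CD133+ library, while Lmx1a and Bmp6 did not. Of the 649 higher genes, 43 had that order toward CD133+ (6.63%), near the 6.81% over all tested genes, so the order is not particular to the called genes. Among the 43 are Wls, which carries WNT proteins to the cell surface, at 303, 325 and 273 CPM against 147, 88.9 and 65 CPM in Nestin+ and 129, 153 and 142 CPM in CD133+ cells. Anxa1, a phospholipid-binding protein gene, read 108, 160 and 178 CPM against 13.6, 12.8 and 18.4 CPM in Nestin+ and 30.9, 64.6 and 53.3 CPM in CD133+ cells. Wls and Anxa1 were singled out after their values were seen, and their differences were 1.65 ± 0.23 (adjusted p = 0.0117) and 3.22 ± 0.21 (adjusted p = 0.00194). The reverse order, with every CD133+ library above every CD133+Nestin+ library, held for 108 of the 649 (16.6%), beside 10.1% of all tested genes.

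**Figure D3:**
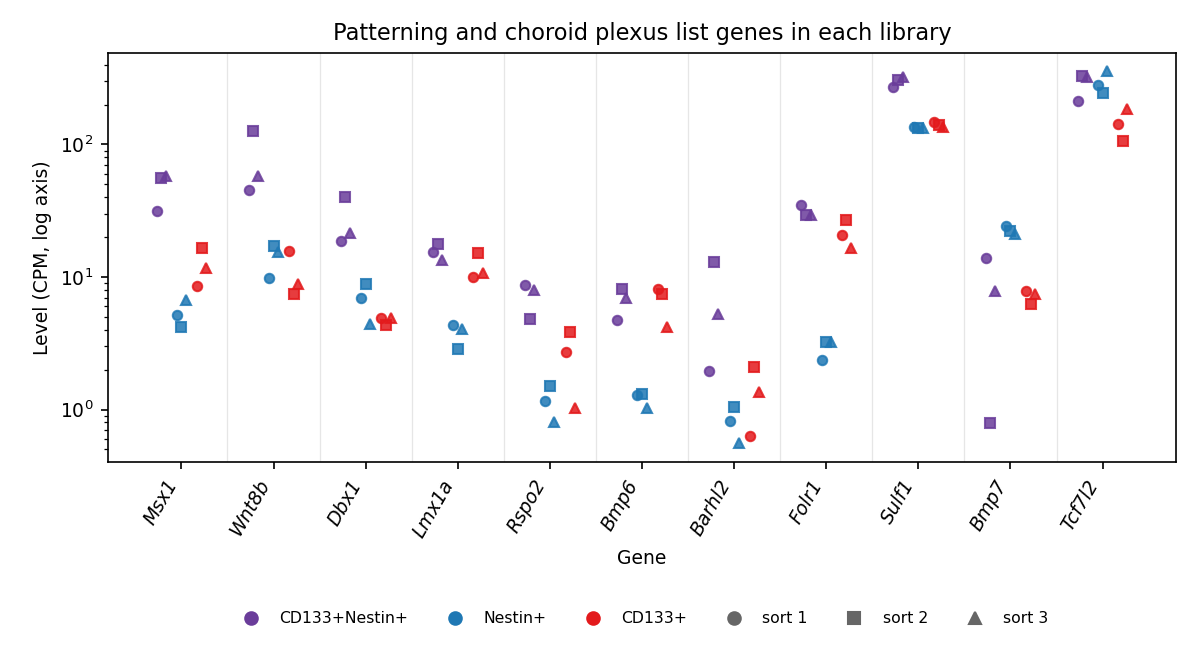
Level of 11 genes of the patterning and choroid plexus lists (y axis, CPM on a log axis) in each library of the 3 populations, with 1 symbol per sort; the genes were chosen after their values were seen. Msx1, Wnt8b and Dbx1 are highest in CD133+Nestin+ cells, and not every gene shown shares that order.

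Of the 12 listed choroid plexus genes 5 were tested, of which 2 rose and 1 fell. Their median was 1.16, and 4 of the 5 had positive differences. The defining markers Ttr and Kl were not analysed here, so the list as a whole could not be judged. Folr1, a folate receptor gene, stood at 34.7, 29.2 and 29.3 CPM against 2.37, 3.26 and 3.21 CPM (3.03 ± 0.28, adjusted p = 0.00417), and Sulf1, a sulfatase of heparan sulfate, rose by 1.16 ± 0.17. Enpp2, which makes lysophosphatidic acid, fell from 195, 181 and 179 CPM to 123, 93.1 and 100 CPM (-0.81 ± 0.17, adjusted p = 0.0445), a call lost in 7 of the 13 other settings tried.

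Oligodendrocyte precursor genes made up the lowest list. None of its 14 tested members had a positive difference, 8 fell, and the median was -1.88. Pdgfra (chromosome 5, 75152292 to 75198215) stood at 168, 33.4 and 19.7 CPM in CD133+Nestin+ and 427, 521 and 250 CPM in Nestin+ libraries (-2.96 ± 0.47, adjusted p = 0.0168). Gpr17, a receptor of precursors that have begun to differentiate, read 81.6, 22.5 and 12.4 CPM against 186, 207 and 83 CPM (-2.33 ± 0.36, adjusted p = 0.0157). In both genes the CD133+Nestin+ library of sort 1 was the highest of its group and came closest to the Nestin+ libraries. Cspg4, the NG2 proteoglycan gene, stood at 80.5, 21.8 and 19.9 CPM against 185, 184 and 133 CPM (-2.30 ± 0.35, adjusted p = 0.0143). Sox10, the lineage's transcription factor, read 10.1, 6.26 and 2.04 CPM against 22.7, 30.1 and 25.5 CPM (-2.11 ± 0.40, adjusted p = 0.0333). Lhfpl3, Pcdh15, Matn4 and the proteoglycan gene Vcan were the other called members, by -1.24 to -2.88. Vcan read 84.2, 53.7 and 35.7 CPM against 179, 176 and 69 CPM, so its groups overlapped.

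The size of the precursor difference varied between sorts, and its calls depended on the model. The median of the list was -1.09 in sort 1, -2.97 in sort 2 and -1.62 in sort 3. The number of called members was 10 without sort 1, 11 without sort 2 and 6 without sort 3, and 0 without the block. The summed level was 186 to 652 CPM in CD133+Nestin+, 831 to 1620 CPM in Nestin+ and 116 to 232 CPM in CD133+ libraries, with no overlap between the first 2. Pdgfra lost its call without sort 2, without sort 3, with library weights and without the block. Of 4 tested myelin genes 0 were called by limma, at a median of -0.72, and 1 in each direction had an unadjusted p under 0.05.

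Lists of neuronal genes had negative medians or few calls. Among 16 tested neuroblast and neuron genes 1 fell, with a median of -0.99, and 3 had positive differences. At an unadjusted p under 0.05, 11 were lower and 1 was higher. The called gene was Dcx, of migrating neuroblasts, at 10.4, 10.2 and 2.48 CPM against 30.1, 33.8 and 17.9 CPM (-1.84 ± 0.30, adjusted p = 0.0175), a call lost without the block. The list's count was 6 without sort 1, 7 without sort 2 and 0 without the block. Neuronal commitment factors (6 tested) and telencephalic factors (5 tested) had 0 called members by limma, and 1 and 2 lower ones at an unadjusted p under 0.05. In a list of glutamate receptor genes written after the values were seen, 3 of 17 fell, and 7 did without sort 2. Gria2, an AMPA receptor subunit, stood at 52.9, 33.1 and 36.4 CPM against 118, 267 and 112 CPM (-1.90 ± 0.34, adjusted p = 0.0268), and the other called members were Gria3 (-1.45 ± 0.28) and Grik3 (-2.05 ± 0.43).

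The largest falls outside the precursor list included adhesion and membrane genes. Cntn1, a cell adhesion gene of neurons and precursors, stood at 110, 29.5 and 20.6 CPM against 332, 370 and 163 CPM (-2.70 ± 0.36, adjusted p = 0.00938). Zdhhc22, which encodes a palmitoyl transferase, read 11.6, 3.61 and 6.7 CPM against 37, 50.1 and 79.7 CPM (-2.82 ± 0.40, adjusted p = 0.0116). Plppr1, a membrane protein gene of neurite growth, read 31, 16.8 and 9.49 CPM against 76.9, 84.7 and 63.8 CPM (-2.06 ± 0.29, adjusted p = 0.0111). For each of these genes all 3 Nestin+ libraries were above all 3 CD133+Nestin+ libraries, and the call of Cntn1 was lost without the block. The sialyltransferase gene St8sia3 had the largest fall, -2.97 ± 0.60 (adjusted p = 0.0392), but its CD133+Nestin+ values of 12, 0.0664 and 1.91 CPM reach under 3 reads in sort 2, and its call was lost without the block. Rasl11a, Plpp4, Lrrtm3, Myt1 and Vxn fell by 2.59, 2.55, 2.36, 2.21 and 2.08 on the log2 scale, and all 5 calls were lost without the block. Among 51 tested protocadherin genes, grouped by symbol after the values were seen, 5 fell (9.80%) and 0 rose. Over all tested genes 0.688% fell and 4.17% rose.

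**Figure D4:**
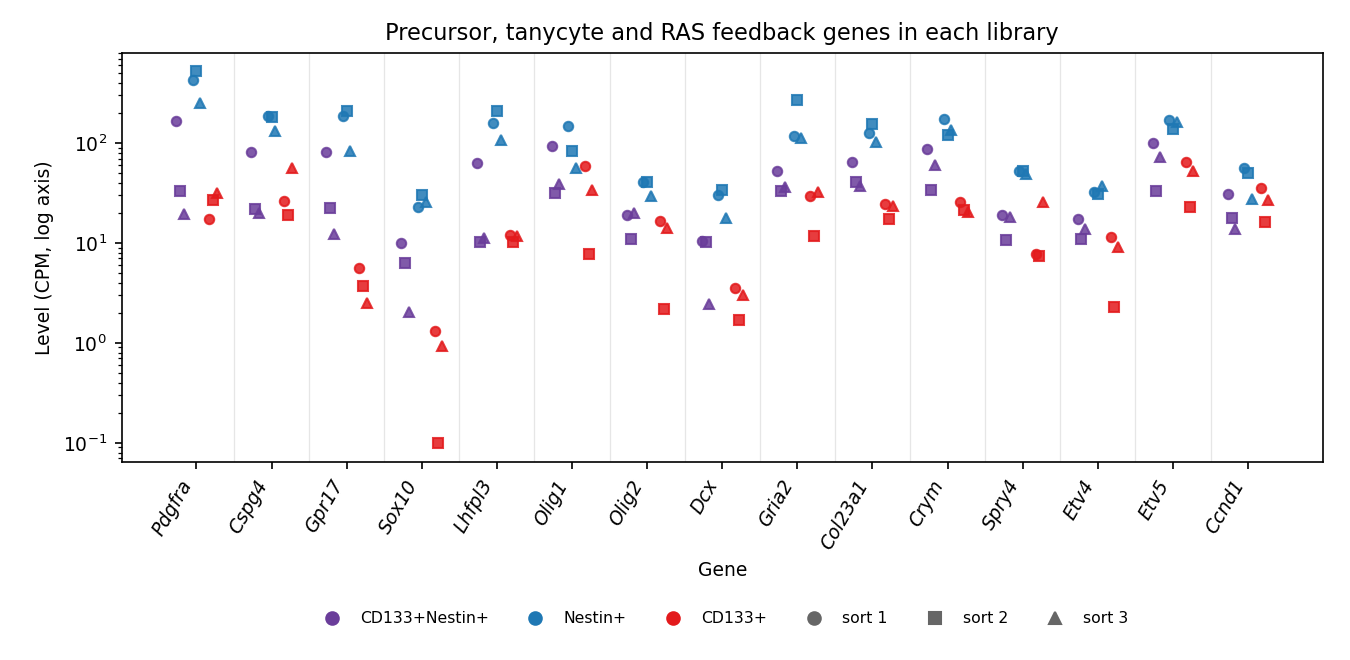
Level of 15 genes of oligodendrocyte precursors, neurons, tanycytes and RAS feedback (y axis, CPM on a log axis) in each library of the 3 populations, with 1 symbol per sort; the genes were chosen after their values were seen. Nestin+ libraries are highest for most genes, and the CD133+Nestin+ library of sort 1 lies closest to them for Pdgfra, Gpr17 and Lhfpl3.

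Genes of stem cells and astrocytes were for the most part not called, but the share that fell was above that of all tested genes. It was 12.5% and 11.8% in these small lists, beside 0.688% of all tested genes. By limma's unadjusted p under 0.05, 5 stem cell genes were lower and 1 was higher. For astrocyte genes these counts were 7 and 2, beside 17.7% of all tested genes in either direction. Of 16 neural stem and radial glia genes 2 fell, Ptprz1, a receptor phosphatase, by 1.10 ± 0.23 and Fgfr3, a growth factor receptor, by 0.98 ± 0.20 on the log2 scale, and the list median was -0.42. Ptprz1 stood at 1837, 696 and 855 CPM against 3708, 2128 and 1354 CPM, with overlapping groups. Of 17 astrocyte genes 2 fell, the glutamate transporter gene Slc1a2 (-0.89 ± 0.17) and the glycolytic gene Aldoc (-1.09 ± 0.21), with a list median of -0.55. Each of these 4 calls was lost in at least 5 of the 13 other settings, the fit without the block among them, while without sort 2 the stem cell list had 6 lower members and the astrocyte list 6.

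Genes of the hypothalamus and of tanycytes, the radial glia at the floor of that ventricle, were lower where called. Of 11 tested members 3 fell and 0 rose, with a median of -0.73. Crym, a thyroid hormone binding protein gene of tanycytes (chromosome 7, 120186380 to 120202111), stood at 86.7, 33.6 and 60.6 CPM against 175, 120 and 136 CPM (-1.32 ± 0.21, adjusted p = 0.0181). Col23a1 read 65.1, 40.5 and 37.2 CPM against 125, 155 and 104 CPM (-1.43 ± 0.23, adjusted p = 0.0172). Neither gene overlapped between the populations. Col25a1, a collagen gene, read 0.52, 0.133 and 0.729 CPM against 2.82, 6.94 and 6.72 CPM (-2.10 ± 0.38, adjusted p = 0.0277). In CD133+ libraries Crym stood lower still, at 25.5, 21.4 and 20.4 CPM.

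The list of RAS and MAPK feedback genes holds genes induced by the pathway, both inhibitors that restrain it and transcription factors and other targets that do not. Of 12 tested members 5 fell and 0 rose, none had a positive difference, and the median was -1.04. Spry4, an inhibitor of receptor signalling, stood at 19.1, 10.7 and 18.3 CPM against 52.5, 52.7 and 49 CPM (-1.66 ± 0.25, adjusted p = 0.0138). The 3 Nestin+ values of Spry4 lay within a narrow range, far above the CD133+Nestin+ values. The ETS factor genes Etv4 and Etv5 fell by 1.21 ± 0.24 and 1.31 ± 0.26, and Dusp6, an ERK phosphatase, by 0.91 ± 0.18 on the log2 scale. Etv5 read 99.4, 33.4 and 72.4 CPM against 171, 137 and 163 CPM. Ccnd1, a cyclin, was the remaining called member (-1.07 ± 0.23). The list's count was 2 without sort 1, 6 without sort 2, 2 without sort 3 and 1 without the block, when Spry4 remained. Of 13 core RAS pathway genes 0 were called by limma and 0 had an unadjusted p under 0.05, at a median of -0.23. Precursor genes, including the receptor gene Pdgfra, were lower in the same libraries, and their part in the feedback genes' difference was not tested.

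Other signalling lists held few calls. The Notch (16 tested), hedgehog (12) and WNT feedback and target (9) lists each had 0 called members by limma. Their medians were -0.26, -0.05 and -0.13, and at an unadjusted p under 0.05 they had 3 lower, 4 lower, and 1 lower and 1 higher members. Over all tested genes the share at that threshold was 17.7% in either direction. Without sort 2, 5 Notch, 2 hedgehog and 1 WNT list members were called lower, and 1 Notch member was without sort 1. The hedgehog receptor gene Ptch1 read 110, 136 and 129 CPM against 169, 200 and 247 CPM, with no overlap (-0.70 ± 0.18, adjusted p = 0.081). Of 7 BMP targets and inhibitors Bambi, a pseudoreceptor gene, rose by 1.69 ± 0.33 and Id2, a target, fell by 1.14 ± 0.23 on the log2 scale, and both calls were lost without the block. The neuropeptide gene Npy rose from 2.54, 1.73 and 3.24 CPM to 10.8, 9.77 and 8.6 CPM (1.63 ± 0.33, adjusted p = 0.0384).

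**Figure D5:**
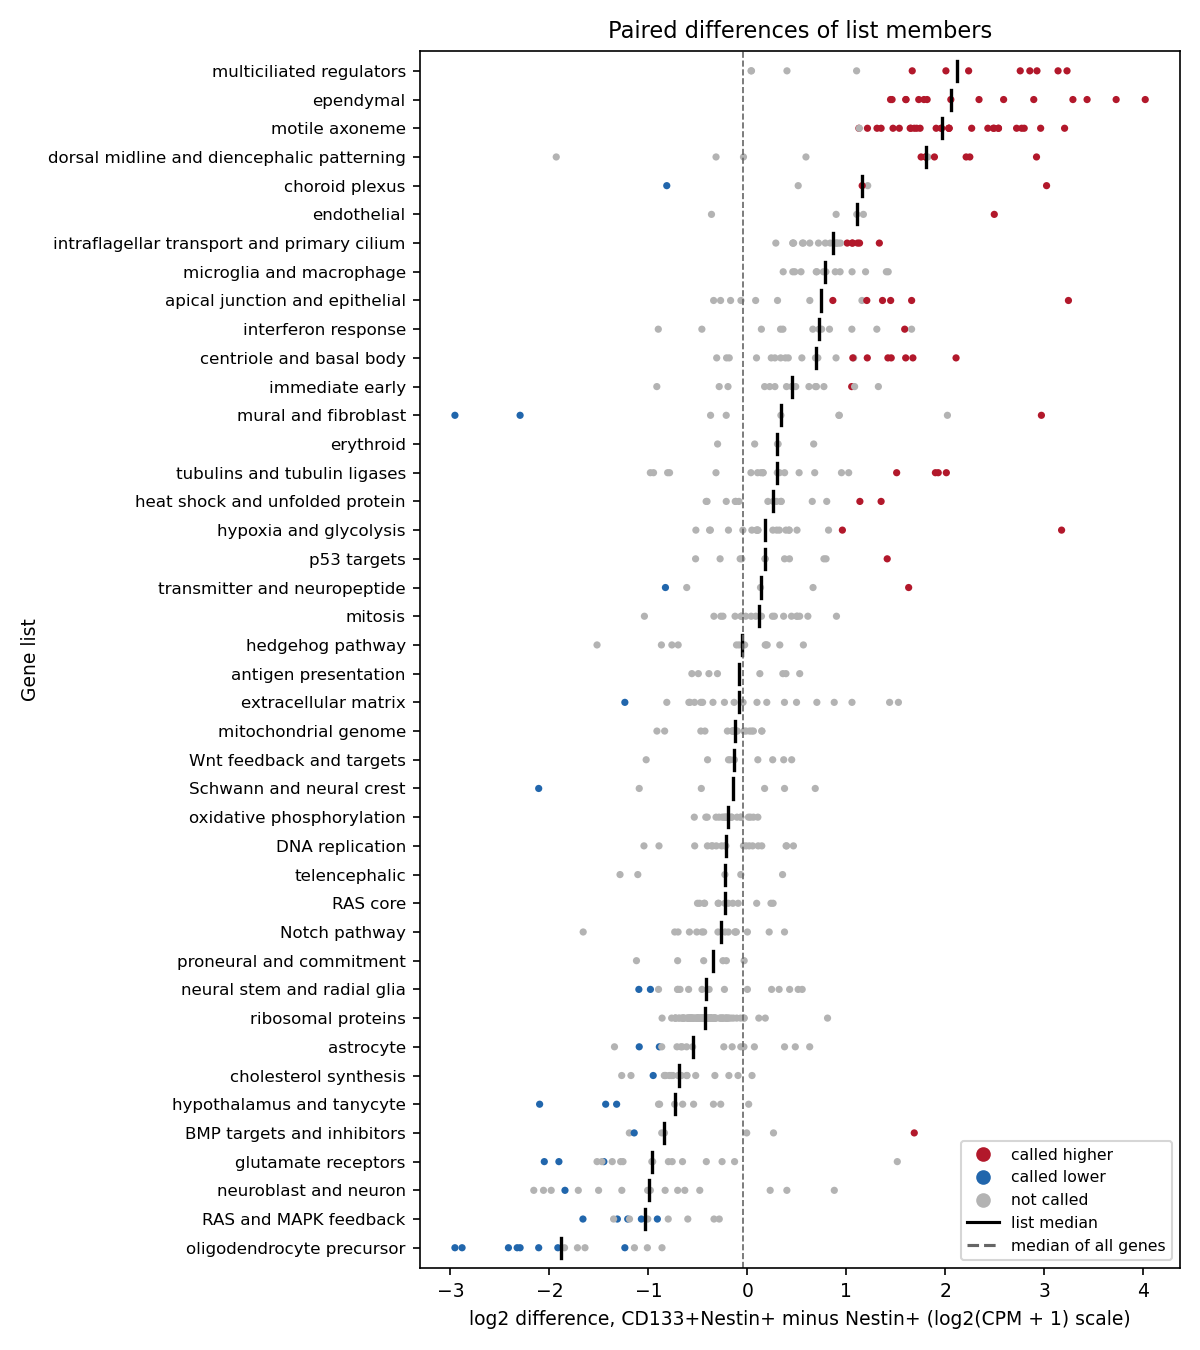
Paired differences of the tested members of each gene list with 5 or more tested members (x axis, log2(CPM + 1) scale), 1 point per gene, with the list median as a bar and the median of all genes (-0.05) as a dashed line. The 3 motile cilia lists and the dorsal midline list lie highest, with medians of 1.80 to 2.12, and the oligodendrocyte precursor list lowest, at -1.88.

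Genes of cell division and basic metabolism held few calls. The lists of DNA replication (19 tested), mitosis (20), oxidative phosphorylation (20), ribosomal proteins (85) and the mitochondrial genome (18) had 0 called members each by limma with all 3 pairs. At an unadjusted p under 0.05, 1 mitosis gene was higher and 3 ribosomal protein genes were lower, and the other lists had 0. Mitosis genes had a median of 0.44, -1.01 and 1.18 in sorts 1, 2 and 3, so the sorts did not share a direction. Without sort 2, 5 mitosis genes and 1 DNA replication gene were called higher. Ribosomal protein genes had a median of -1.14 in sort 2 and -0.06 and -0.09 in the other sorts. Of 20 hypoxia and glycolysis genes 2 rose, Car9, a carbonic anhydrase gene, and Pfkl. Car9 read 19.4, 32.7 and 19.2 CPM against 1.13, 1.76 and 2.19 CPM (3.18 ± 0.32, adjusted p = 0.00463), while Pfkl rose by 0.96 ± 0.18. Of 20 cholesterol synthesis genes Fdps fell by 0.95 ± 0.19 on the log2 scale, the list median was -0.69, and 14 members were lower at an unadjusted p under 0.05. Without sort 2, 6 cholesterol synthesis genes were called lower. Single members rose in the lists of immediate early genes (Jun, 1.06 ± 0.18), p53 targets (Cdkn1a, 1.41 ± 0.29) and the interferon response (Ifitm3, 1.59 ± 0.25), as did Hsph1 and Hsp90aa1 of 15 heat shock and unfolded protein genes. The interferon count was 4 without sort 2. Of 20 extracellular matrix and 6 Schwann and neural crest genes, Vcan and Sox10, both also in the precursor list, were the called members. Without sort 2, 3 matrix genes were called higher and 3 lower.

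Markers of cells outside the neural lineage were measured in the same libraries. All 14 tested microglia and macrophage genes had positive differences and 0 were called, with medians of 1.42 and 0.87 in sorts 1 and 2 and near 0 in sort 3. By limma's unadjusted p under 0.05, 4 of them were higher, beside 17.7% of all tested genes in either direction. Called members numbered 2 without sort 2, 2 without sort 3, and 14 with library weights. Their summed level was 59.8 to 419 CPM in CD133+Nestin+ and 45.2 to 136 CPM in Nestin+ libraries, beside 1304 to 3574 CPM in CD133+ libraries. Of 5 tested endothelial genes Cldn5, a junction gene of brain vessels, rose. It read 13.7, 1.95 and 9.07 CPM against 1.03, 0.13 and 0.0618 CPM (2.5 ± 0.43, adjusted p = 0.0229), and the CD133+ libraries held 187, 207 and 321 CPM. Of 9 mural and fibroblast genes Dcn, a connective tissue gene, rose, at 5.69, 8.12 and 15.5 CPM against 0.172, 0.359 and 0.308 CPM (2.97 ± 0.36, adjusted p = 0.00664), and Pdgfra and Cspg4, which that list shares with the precursor list, fell. Of 5 erythroid genes 0 were called by limma, and 0 had an unadjusted p under 0.05, as for 8 antigen presentation genes. The summed erythroid level was 344 CPM in Nestin+ of sort 2, beside 40.7 and 24.4 CPM in the other Nestin+ libraries and 60.6 to 118 CPM in CD133+Nestin+ cells. The erythroid medians were 1.04, -2.48 and 2.07 in sorts 1, 2 and 3. Without sort 2, 4 erythroid genes were called higher, and 3 with library weights. The part of these cells in the other differences was not tested.

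Over all called genes, the CD133+ libraries continued the direction of the difference more often than over the table. The mean of the CD133+ libraries was above that of the CD133+Nestin+ libraries for 419 of the 649 higher genes (64.6%), beside 51.9% of all tested genes. It was below it for 90 of the 107 lower genes (84.1%), beside 48.1% of all tested genes. These shares are descriptions, since the CD133+Nestin+ libraries enter both sides. In the authors' deposited table for the same pair of groups, 475 genes had a false discovery rate under 0.05 (2.59% of its rows), 456 higher and 19 lower in CD133+Nestin+ cells. Of 468 such genes among those tested here, 435 were also called, 92.9% of the authors' and 57.5% of the 756, all in the same direction.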

How the data were processed

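The labels' protocols describe total RNA sequencing of 9 mouse samples on a HiSeq instrument. The tools listed in the submitters' processing notes are STAR 2.5.3a, Partek 8.0, bcl2fastq and limma, and the build is mm10. The way reads were assigned to genes, and any use of strand, are not given in the sources used here. Near-identical copies and overlapping or antisense genes are uncertain. The deposited table holds values made by the authors, inferred from their steps to be CPM with an offset of 0.0001. Between 26.9% and 56.2% of low values in the 6 libraries lay within 0.02 reads (the tolerance) of a whole number. Read counts could therefore not be rebuilt, and count models were not applied. The step implies 29100000 to 34200000 reads a library, which limits counting error only. Per the file headers, the authors' second deposited table gives p-values with a step-up false discovery rate, a ratio of their group means, a signed fold change kept as a score, and least-squares means as a signal. Only its false discovery rate and ratio were used, as the authors' result.

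Values were tested as log2(CPM + 1). A gene was kept at 1 CPM in at least 3 of the 6 libraries, which removed 2768. The 6 libraries were fitted in limma 3.58.1 under R 4.3.3 with the sort number as a block, trended and robust empirical Bayes variances and Benjamini-Hochberg adjustment over 15561 genes. The script was tested on simulated data. The pairing comes from the sort number in the titles and was looked at in the data. Deviations from the group means correlated across genes at 0.738, 0.349 and 0.226 within the sorts, and at -0.534 to 0.323 between different sorts. Only sort 1 stood well clear of the values between sorts. Such deviations cancel out within each group, so negative values between sorts follow in part from the measure. When a sort is left out, 2 pairs remain and the spread is moderated over genes.

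The comparison, the gene lists and the rule for named genes were chosen with earlier results of these data known. The rule takes Prom1 and Nes, the 15 largest rises and 15 largest falls among called genes whose groups were apart and whose higher group averaged 10 CPM or more, and up to 4 called members of smallest p per list and direction. Other genes named from a list were chosen after their values were seen. GENCODE M21 on GRCm38 (also called mm10) gave the gene positions. Promoters are from RefSeq (GRCm38.p6), matched by symbol. Motif shares are given for lists with 80% or more of their members matched and for the whole RefSeq table, and not for the tested genes (68.2% matched) or the multiciliated regulators (75%).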

Additional observations from a re-analysis of the deposited data

How the results depend on the processing

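All 106 called genes named in the text kept their direction in each of the 13 other settings tried. Each called gene moved the same way in all 3 pairs, and most settings average, weight or drop those pairs. Such settings could not reverse a direction, so the kept directions are no support for the calls. Of the 106 genes, 42 were called in every setting in which they were tested. Without the sort number as a block, 403 genes were called between the populations, 389 higher and 14 lower, and 53 of the 106 named genes lost their call. Pairs of libraries left out in turn gave 518 to 1557 called genes, 428 to 1190 of them higher and 90 to 367 lower, the largest counts without sort 2. Library weights gave 3181 called genes, 2096 higher and 1085 lower, with 755 of the 756 among them, and weighted sort 1 at 4.2, sort 2 at 0.249 and sort 3 at 0.956. The lower genes moved most: 183 were called with all 9 libraries in the fit with the replicate block, 70 with a pseudocount of 0.1, 53 with no filter and 33 with a constant, non-robust prior. In a fit of all 9 libraries with no replicate block, added after seeing the data, 44 were called. The cause of these shifts was not tested. Median centring and quantile normalization moved the median of all genes by less than 0.1 (log2) and gave 769 and 732 called genes. The counts of the 3 motile cilia lists stayed within 1.5 times of those reported in each setting. With 3 sorts, small differences may go uncalled.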
